A study of Glycine max with 18 samples.

Results

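Beta-amylase cuts maltose, a sugar of paired glucose units, from the free ends of starch chains. In Arabidopsis some members of the family act inside chloroplasts, where they break down leaf starch, and others act outside them. Soybean seed is a classic source of the enzyme: the growing embryo stores starch for a time while it fills with protein and oil, and little of that starch is left in the ripe seed.

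A single gene is described here, Glyma.06G301500, the seed beta-amylase Bmy1, which is 1 of the 51546 gene identifiers in each library. It was chosen by its identifier, with no rule on its values, though earlier results of these data were known. The name Bmy1 came with that choice: the deposited files list identifiers without names, and the RefSeq gene table (Glycine max v4.0) tied 0 of the 51546 identifiers to a gene. That table gives BMY1 as another name of 2 genes, LOC547931 on chromosome 6 and LOC547684 on chromosome 15, and neither could be linked to the identifier. Other beta-amylases and the remaining genes of starch synthesis and breakdown could not be picked out for the same reason. Reads that match a near-identical gene copy may have been split between copies, and how they were counted is not given in the sources used here.

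Transcripts were measured in the soybean cultivar Williams 82, grown in a greenhouse with 16 h of light, in 18 libraries of polyadenylated RNA from 6 stages. The stages were cotyledon-stage embryos taken out of seeds of 2.5 to 3.5 mm, early maturation embryos from seeds of 6 to 7 mm, mid maturation embryos from seeds of 200 to 250 mg, late maturation embryos from wholly yellow seeds of 230 to 500 mg, mature dry seeds, and whole seedlings 8 days after sowing. Each stage had 3 biological replicates, and whether each was 1 plant or a pool of plants is not stated in the labels. The tissue label is embryo for the first 4 stages, seed for the dry stage and seedling for the last, so tissue changed together with stage in the last steps, and for late maturation the labels name the seed coat as well as the embryo without saying whether the coat was sampled. The file headings of the seedling libraries carry the letters COT, whereas the labels say whole seedlings, which was followed here. The sample titles give the seedling age as 8 DAI, letters that they do not spell out. No marker gene could be identified, so the tissues were not checked against markers.

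The values are read counts set relative to a scaled library size and are called scaled CPM below. The libraries held 3572134 to 8776240 reads, and the gene had reads in all 18 of them, from 86 in dry seed replicate 1 to 18265 in mid maturation replicate 2. Across 36872 genes, libraries of a stage correlated at r = 0.974 to 0.990. Late maturation replicate 1 lay nearer to the mid maturation libraries (r = 0.748 to 0.762) than late maturation replicates 2 and 3 did (0.703 to 0.729), and early maturation replicate 3 nearer (0.863 to 0.879) than early maturation replicates 1 and 2 (0.827 to 0.853). Of 40 genes restricted to seedlings, the median level was 0.628% of that in seedlings for cotyledon replicate 3, while it was 0.1004% and 0.102% for cotyledon replicates 1 and 2. These genes had a seedling mean of at least 300 scaled CPM and every other stage mean below 5% of it. Cotyledon replicate 3 was left out of the means that picked them, so the choice itself favours a higher level in that library.

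Bmy1 transcript formed a pulse in seed filling. It was low in the cotyledon-stage embryo, rose steeply by early maturation, was highest at mid maturation, stood at 1.05% and 0.6099% of that level in late maturation and dry seed, and was again higher in the seedling. Stage means differed over a log2 range of 7.29 (moderated F test of limma over 6 stages, adjusted p = 3.89e-21). Most genes varied over these stages, since 94.3% of the 36872 genes tested were called by the same test, but few over so wide a range: 491 genes, 1.33% of those tested, had a range at least as large, and the median range was 2.36. With 1 added to each value, a gene that is low at every stage cannot reach such a range. That share thus depends in part on the high peak level of Bmy1, and so do the counts of genes that changed as much in single steps.

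At the cotyledon stage the 3 libraries stood at 24.7, 24.9 and 21.4 scaled CPM, a mean of 23.7 ± 1.96 (SD, n = 3). In early maturation they stood at 982, 879 and 1284, a mean of 1048 ± 211 (SD, n = 3). At mid maturation the values were 3886, 4127 and 3460, a mean of 3824 ± 338 (SD, n = 3). The lowest mid maturation library was thus above the highest early maturation library, and the lowest early maturation library was far above every cotyledon library.

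In late maturation the libraries stood at 40.1, 34.4 and 46.2 scaled CPM, a mean of 40.2 ± 5.88 (SD, n = 3). Dry seed had 22.2, 23.2 and 24.5, a mean of 23.3 ± 1.17 (SD, n = 3). Seedlings had 94.7, 98.8 and 104, a mean of 99.3 ± 4.82 (SD, n = 3). Every late maturation library lay above every dry seed library, and every seedling library above both, while the dry seed and cotyledon libraries overlapped.

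**Figure D1:**
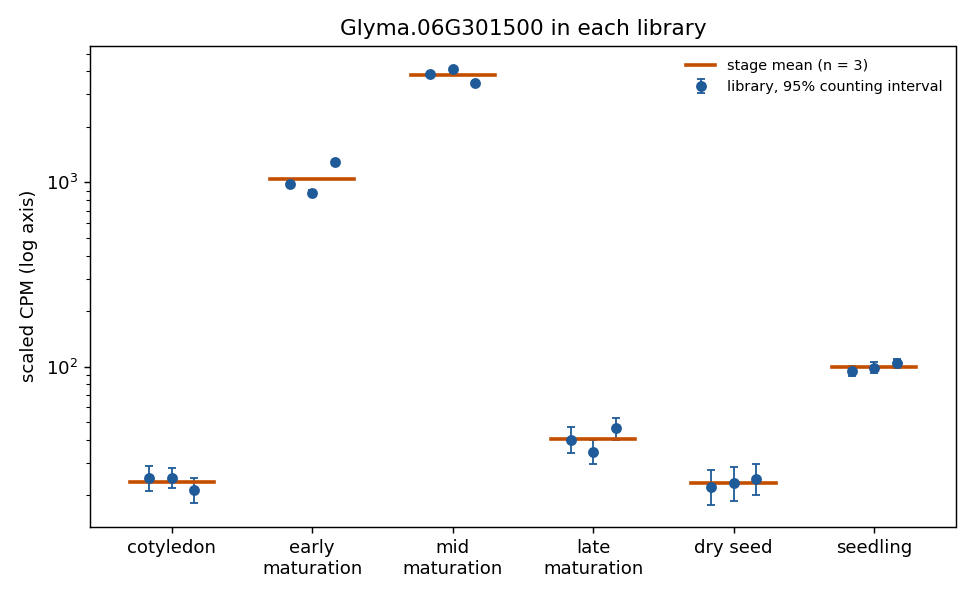
Scaled CPM of Glyma.06G301500 (vertical log axis) in each of the 18 libraries, in stage order from cotyledon to seedling. Points are libraries with 95% counting intervals and bars are stage means of 3 libraries. The mid maturation libraries sit between 3460 and 4127, and the cotyledon and dry seed libraries between 21.4 and 24.9.

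The first rise came between the cotyledon stage and early maturation. Early maturation embryos averaged 1048 ± 211 scaled CPM, against 23.7 ± 1.96 in cotyledon-stage embryos, a 44.3-fold higher mean. The log2 difference was 5.395 (SE 0.135, 95% interval 5.12 to 5.68, limma adjusted p = 9.52e-18), and single early maturation libraries were 35.3 to 59.99 times single cotyledon libraries. In this step 8.53% of tested genes were called higher (adjusted p under 0.05 and a log2 difference of at least 1), and 57 genes, Bmy1 included, differed by at least as much as Bmy1. In whole embryos, more cells that make a transcript and more transcript per cell cannot be told apart, which holds for every step below. Bmy1 was lowest in cotyledon replicate 3, the cotyledon library with the higher median of the seedling-restricted genes, and without that library the log2 difference was 5.33.

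Between early and mid maturation Bmy1 rose again, by less. Mid maturation embryos averaged 3824 ± 338 scaled CPM, against 1048 ± 211 in early maturation embryos, a 3.65-fold higher mean. The log2 difference was 1.88 (SE 0.135, 95% interval 1.60 to 2.16, limma adjusted p = 2.22e-10), and 11.3% of tested genes were called higher in this step. The size of this rise depended on the scaling. As a plain share of library reads Bmy1 was at 0.252%, 0.257% and 0.223% at mid maturation, against 0.105%, 0.0954% and 0.144% in early maturation, a 2.12-fold higher mean share, with a log2 difference of 1.11 (limma adjusted p = 1.20e-06). Scaling to library totals moved the median of all genes by -0.48 on the log2 scale in this step, relative to the values as deposited.

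The early maturation libraries spread more than those of any other stage. Their coefficient of variation was 20.1%, whereas counting error alone would give 1.08%, and replicate 3, which also lay nearest to mid maturation across all genes, was the highest at 1284. At mid maturation the coefficient of variation was 8.83% against 0.846% from counting, and in late maturation 14.6% against 7.47%. In dry seed it was 5.02%, below the 10.4% from counting, and at the cotyledon stage 8.29% against 7.08%, so that at those levels the spread between replicates was about that of counting. The SE from limma is 1 value shared by all stages, so its intervals do not reflect the wider spread of early maturation. Fitted to its 6 libraries alone, mid minus early maturation had a limma adjusted p of 0.000614. Early maturation minus cotyledon had 1.28e-05, and late minus mid maturation 3.02e-05, in such fits. Without early maturation replicate 3 the log2 difference of mid over early maturation was 2.04. Whether that library's nearness to mid maturation plays a part in its Bmy1 value was not tested.

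The steepest change was the loss between mid and late maturation. Late maturation embryos averaged 40.2 ± 5.88 scaled CPM, against 3824 ± 338 in mid maturation embryos, and so stood at 1.05% of the mid maturation mean. Bmy1 fell by 6.54 on the log2 scale (SE 0.135, 95% interval -6.82 to -6.26, limma adjusted p = 1.16e-18). Single late maturation libraries held 0.00834 to 0.0133 times the level of single mid maturation libraries. Genes called lower made up 23.6% of those tested in this step, and 32 genes, Bmy1 included, fell by at least as much as Bmy1, while the median of all tested genes was -0.11. Genes of low level at mid maturation could not fall that far on this scale. Late maturation replicate 1, the library nearest to mid maturation across all genes, was not the highest of its stage for Bmy1, and without it the log2 difference was -6.54.

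Among the 8685 other tested genes whose highest stage mean reached 50, 782 were highest at mid maturation. Their median log2 drop in late maturation relative to mid maturation, taken from stage means, was 1.51, while that of Bmy1 was 6.54, and 26 of the 782 (3.32%) had a drop at least as large. These genes were picked by the same libraries that give the difference, so the numbers are a description of where Bmy1 stood among them.

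Between late maturation and dry seed the difference in Bmy1 level was smaller than the limit used for a call. Dry seeds averaged 23.3 ± 1.17 scaled CPM, against 40.2 ± 5.88 in late maturation embryos. The log2 difference was -0.75 (SE 0.135, 95% interval -1.03 to -0.47), with a limma adjusted p = 7.76e-05. The adjusted p was below its limit, but the difference was short of the log2 difference of 1 that a call needed. In this step 14.5% of tested genes were called lower. With only the 6 libraries of these stages the limma adjusted p was 0.00865. The dry seed values rest on 86, 88 and 105 reads, and counting alone leaves the lowest of them, 22.2, between 17.8 and 27.4 scaled CPM (exact binomial 95% interval).

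Seedlings held more Bmy1 transcript than dry seeds. They averaged 99.3 ± 4.82 scaled CPM, against 23.3 ± 1.17 in dry seeds, a 4.26-fold higher mean, and single seedling libraries were 3.86 to 4.695 times single dry seed libraries. The log2 difference was 2.04 (SE 0.135, 95% interval 1.76 to 2.32, limma adjusted p = 5.62e-12). Such a rise was common, since 41.8% of tested genes were called higher in this step, and 8368 genes, 22.7%, differed by at least as much. The seedling level was 2.595% of the mid maturation mean. As a share of library reads the seedling mean was 6.55-fold that of dry seeds.

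**Figure D2:**
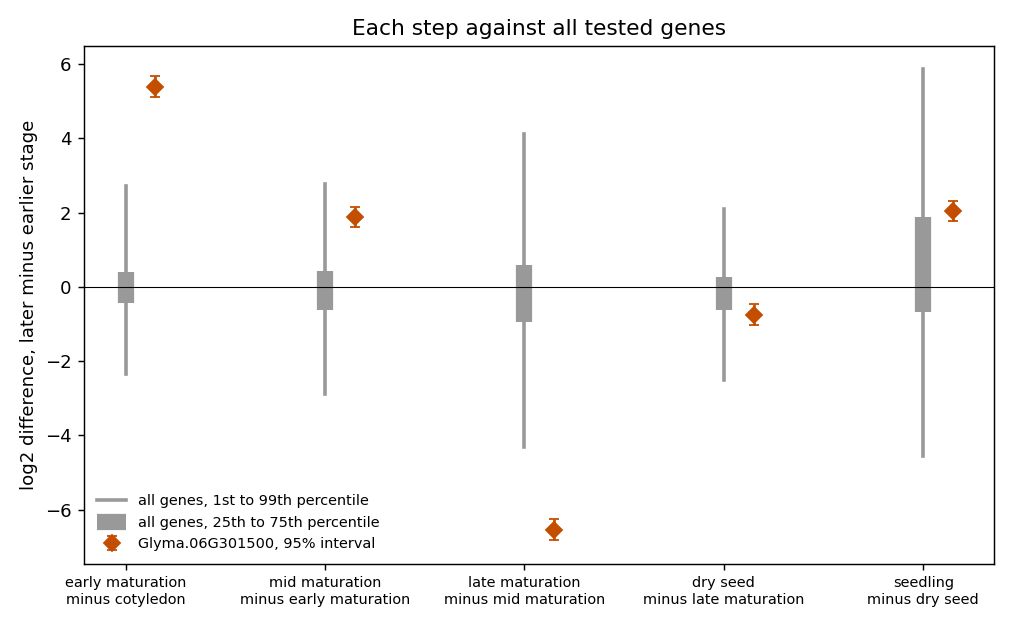
Log2 difference of each stage minus the stage before it (vertical axis) for the 5 neighbouring steps. Diamonds are Glyma.06G301500 with 95% intervals from limma, and grey bars and lines are all 36872 tested genes (25th to 75th and 1st to 99th percentiles). Bmy1 lies outside the lines in the first step, at 5.395, and in the mid to late maturation step, at -6.54, and inside them in the other steps.

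Ordered by mean, the stages ran from mid maturation (3824) through early maturation (1048), seedling (99.3), late maturation (40.2) and cotyledon (23.7) to dry seed (23.3 scaled CPM). Mid and early maturation differed as given above. Seedlings were lower than early maturation embryos, at 99.3 ± 4.82 against 1048 ± 211 scaled CPM. The log2 difference there was -3.37, with an SE of 0.135 and a limma adjusted p of 2.09e-15, and 22.8% of tested genes were called lower. Seedlings were higher than late maturation embryos by 1.29 on the log2 scale (SE 0.135, limma adjusted p = 1.40e-08), where 35.6% of tested genes were called higher. The size of that difference depended on the scaling, at 1.90 with library totals alone, and the seedling mean was 2.47-fold that of late maturation on the scaled values and 3.75-fold as a share of library reads.

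The lowest stages were harder to set apart. Late maturation embryos averaged 40.2 ± 5.88 scaled CPM, against 23.7 ± 1.96 in cotyledon-stage embryos, and their values did not overlap. The log2 difference was 0.73 (SE 0.135, limma adjusted p = 4.46e-05), again short of the limit of 1, in a pair in which 49.7% of tested genes were called. That difference depended on the scaling: it was 1.03 after upper-quartile rescaling and 0.13 (limma adjusted p = 0.431) with library totals alone, where single libraries of the stages overlapped.

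Dry seeds and cotyledon-stage embryos, the ends of seed development, could not be told apart for Bmy1. Dry seeds averaged 23.3 ± 1.17 scaled CPM, against 23.7 ± 1.96 in cotyledon-stage embryos. The log2 difference was -0.018 (SE 0.135, limma adjusted p = 0.92), with a 95% interval that allows dry seed to lie between 0.813 and 1.20 times the cotyledon level. In this pair 55.0% of tested genes were called. The scaling set the sign: the log2 difference was 0.49 after upper-quartile rescaling (limma adjusted p = 0.00271) and -0.62 with library totals alone (limma adjusted p = 0.00067). Seedlings, by contrast, were higher than cotyledon-stage embryos by 2.03 on the log2 scale (SE 0.135, limma adjusted p = 9.56e-12), at 99.3 ± 4.82 against 23.7 ± 1.96 scaled CPM, and 28.4% of tested genes were called higher in that pair.

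The filling stages were set apart from every other stage. Mid maturation embryos held 161.6 times the mean of cotyledon-stage embryos, 3824 ± 338 against 23.7 ± 1.96 scaled CPM, a log2 difference of 7.28 with a limma adjusted p of 2.15e-20, where 12.8% of tested genes were called higher. As a share of library reads the ratio of these means was 75.96. Dry seeds fell by 7.29 on the log2 scale relative to mid maturation embryos (limma adjusted p = 6.12e-20; 31.8% of tested genes were called lower), and seedlings fell by 5.25 (limma adjusted p = 2.12e-18; 17.5% were called lower). Relative to early maturation, Bmy1 fell by 4.66 in late maturation (limma adjusted p = 1.92e-17; 30.0% of tested genes were called lower) and fell by 5.41 in dry seed (limma adjusted p = 1.47e-18; 35.0% were called lower). These pairs share libraries with one another and with the neighbouring steps.

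How other stages compare with mid maturation also depends on the scaling. The summed values of a library ran from 718776 to 1603763 scaled CPM and were highest at mid maturation. On the scaled values, early maturation stood at 27.4% of the mid maturation mean, the seedling at 2.595%, late maturation at 1.05%, the cotyledon stage at 0.619% and dry seed at 0.6099%. As shares of library reads the same means were 47.1%, 5.51%, 1.47%, 1.32% and 0.841% of the mid maturation mean. The order of the 6 stages was the same on both.

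**Figure D3:**
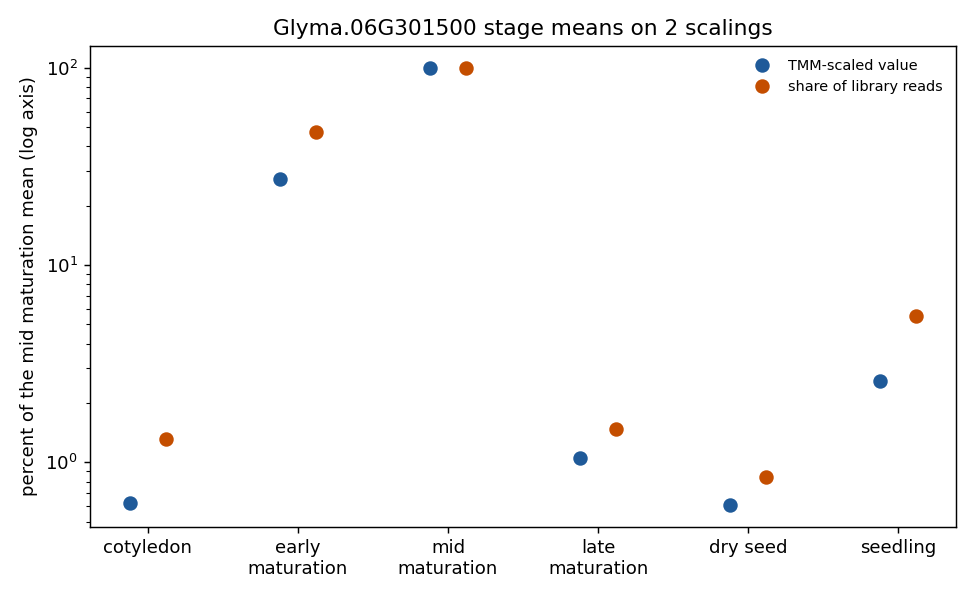
Stage means of Glyma.06G301500 as percent of the mid maturation mean (vertical log axis), once from the TMM-scaled values and once from shares of library reads, in stage order. The shares lie above the scaled values at every stage other than mid maturation, for instance 47.1% against 27.4% in early maturation.

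Other genes with a course like that of Bmy1 were few. Likeness was measured as Pearson's r over the 18 libraries on log2(value + 1), for 8685 other tested genes whose highest stage mean reached 50. The libraries share their stage, their depth and their scaling, so r is a description. The median r was -0.091, 48 genes (0.553%) reached 0.9, and 15 genes (0.173%) reached 0.95, of which 14 were highest at mid maturation. The files do not pair these identifiers with names. Which genes come first depends on the measure: of the 6 with the highest r, 2 were among the first 6 by Spearman's rho and 2 when no minimum mean was set, while 6 were by r over stage means.

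The most similar gene was Glyma.08G350800 (r = 0.992). It averaged 60.2 ± 8.89 scaled CPM in cotyledon-stage embryos, 711 ± 26.5 in early maturation and 1892 ± 73.3 at mid maturation (SD, n = 3). Late maturation embryos averaged 65.7 ± 6.70, dry seeds 38.4 ± 6.39 and seedlings 128 ± 8.68 (SD, n = 3). From stage to stage its means ran the same way as those of Bmy1 in all 5 steps, over a narrower range. Next came Glyma.08G127600 (r = 0.982), which stood at 3.22% of its mid maturation mean in late maturation and at 10.2% of it in seedlings.

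Glyma.10G278100 (r = 0.980) had the same order of early and mid maturation with a shallow course, since it still stood at 29.3% of its highest mean in late maturation. Glyma.03G036600 (r = 0.978) had a sharper pulse, at 0.0386% of its mid maturation mean at the cotyledon stage and 12.5% in early maturation. Its cotyledon values ran from 0 to 0.0926 scaled CPM, and 1 read was worth 0.0926 in cotyledon replicate 2. Glyma.13G168700 (r = 0.976) stood at 50.1% of its mid maturation mean in early maturation, against 27.4% for Bmy1, and at 1.47% in late maturation, against 1.05% for Bmy1. Glyma.13G206700 (r = 0.967) reached 90.5% of its highest mean by early maturation. All 6 were highest at mid maturation, and in all 6 the seedling mean was above the dry seed mean, by 1.17-fold for Glyma.10G278100 to 37.3-fold for Glyma.03G036600. The dry seed values of Glyma.03G036600 ran from 0 to 0.234 scaled CPM, and 1 read was worth 0.234 in dry seed replicate 3. The size of its fold is therefore not reliable. Over the 782 genes highest at mid maturation, chosen without regard to Bmy1, the seedling mean was above the dry seed mean for 503 (64.3%).

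**Figure D4:**
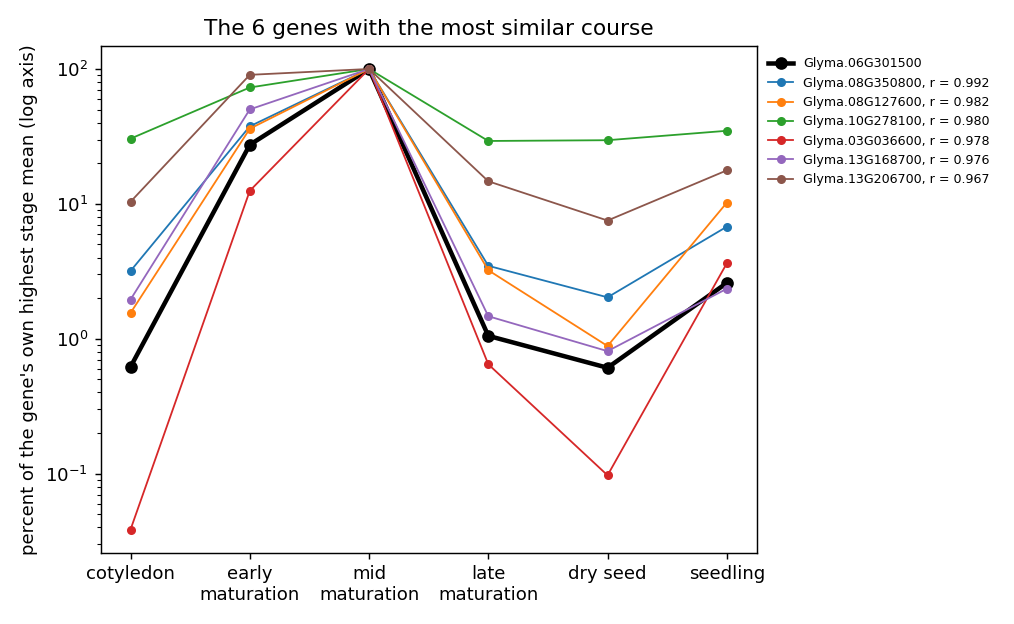
Stage means as percent of each gene's own highest stage mean (vertical log axis), in stage order, for Glyma.06G301500 in black and the 6 genes with the highest Pearson's r to it. All peak at mid maturation, and in late maturation they range from 0.647% for Glyma.03G036600 to 29.3% for Glyma.10G278100. The late maturation values of Glyma.03G036600, 0.44 to 0.57 scaled CPM, rest on a few reads.

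The most opposite courses were those of Glyma.04G091600 (r = -0.960), Glyma.06G093400 (r = -0.956) and Glyma.12G064000 (r = -0.945). Glyma.04G091600 averaged 79.7 ± 3.07 scaled CPM at the cotyledon stage, 3.29 ± 0.372 in early and 1.23 ± 0.297 in mid maturation, and 28.2 ± 12.1 in late maturation (SD, n = 3). Glyma.06G093400 likewise had its highest mean at the cotyledon stage and its lowest at mid maturation. Glyma.12G064000 was highest in dry seed, at 431 ± 40.4, and lowest at mid maturation, at 124 ± 14.5 scaled CPM.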

How the data were processed

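Each deposited file held 1 signal value per gene and library. The submitters' processing notes name the aligner Bowtie (0.12.7) and edgeR (3.0.8). Which build, annotation and counting were used is not given in the sources used here. Within a library nearly all deposited signal values were whole multiples of what 1 read is worth: 927825 of 927828 values (99.9997%) came out within 0.05 of a whole read. The implied scaling matched TMM factors (trimmed mean of M-values) computed anew from those reads, with a largest relative difference of 4.35e-08.

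limma (3.58.1, under R 4.3.3) was the main test, two-sided, in 1 model over 18 libraries with a mean-variance trend. It used log2(value + 1) of the 36872 genes that reached a value of 1 in 3 or more libraries. Log2 differences on this scale understate changes of low genes. Adjusted p-values are Benjamini-Hochberg over all tested genes, per comparison. The stages share 1 estimate of the spread for each gene. All 15 stage pairs were compared, and a call needed an adjusted p below 0.05 together with a log2 difference of 1 or more in size. The procedure was run on simulated data in which few genes changed in a step, unlike these data. That run thus does not show how reliable the calls are here. Labels call the replicates biological, without saying what separates them. Intervals on reads are exact binomial (Clopper-Pearson, 95%) and, like the floor of 3 reads, speak of counting error alone, because PCR copies of a molecule are counted too.

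The genes named are Bmy1, the 6 genes with the highest and the 3 with the lowest r to it. The gene, the lists and the tests were chosen with earlier results of these data known. Lists by product name (starch enzymes, storage proteins and others) and comparisons of protein or promoter sequence were planned but not made, because the gene table linked no identifier. Alternatives covered pseudocount, filter, scaling, replicate block, trend, libraries in the fit, and count models (edgeR 4.0.16 quasi-likelihood, DESeq2 1.42.0) on the recovered reads.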

Additional observations from a re-analysis of the deposited data

How the results depend on the processing

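For Bmy1, 16 results (15 stage pairs and the test among stages) were recomputed under 30 settings, 18 of which left out 1 library. For a stage pair, leaving out a library of another stage, or changing the filter, block or trend, does not alter the log2 difference. Many of the values thus could not change direction, only their adjusted p. Of the 479 values, 471 kept their direction and stayed called or not called, and 14 of the 16 results did so throughout. The exceptions were the pairs closest in level. Late maturation minus cotyledon passed the limit after upper-quartile rescaling (1.03). Dry seed minus cotyledon changed sign after upper-quartile (0.49) and median-of-ratios rescaling (0.11), with edgeR (0.028) and with DESeq2 (0.12), and leaving out 1 library gave -0.086 to 0.019; its difference was -0.018 as reported. With library totals alone mid minus early maturation was 1.11. A call joins both limits, so a value can cross the limit on adjusted p and still count as unchanged. With library totals alone, late maturation minus cotyledon had a limma adjusted p of 0.431, against 4.46e-05 as reported. Dry seed minus cotyledon had 0.00067 in that setting, against 0.92 as reported. With the replicate number as a block, dry seed minus late maturation was -0.75 (limma adjusted p = 0.000144), and no call changed. Replicate numbers gave little sign of a pairing: among 45 pairs with equal numbers, 2 had deviations correlated above 0.1 (range -0.154 to 0.109). Both were between early maturation and cotyledon libraries. Low correlations cannot show that libraries of equal number were unrelated.

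On the recovered reads edgeR called 9535 genes in early maturation against cotyledon, where limma called 6905, 11980 and 9583 in mid against early maturation, 17942 and 14906 in late against mid maturation, 10875 and 8228 in dry seed against late maturation, and 25518 and 22687 in seedling against dry seed. With a pseudocount of 4 limma called 3984, 5877, 9618, 4331 and 15507 in these steps. Library totals alone left 1649 genes higher in mid than in early maturation, against 4181 as reported. Of the 6 most similar genes, 6 were found again by r over stage means, 2 by Spearman's rho and 2 with no minimum mean, and 5 or 6 without any 1 library. The fit to the libraries of 1 pair gives no test among 6 stages. Starch gene counts could not be made under any setting. Depth limits the dry seed values most, at 86 to 105 reads a library, then late maturation (147 to 210) and cotyledon (164 to 269).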

Other observations

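The identifiers listed next to Bmy1 in the files are given here, a choice made after their values were seen. Glyma.06G301300 averaged 78.5 ± 3.54 scaled CPM in cotyledon-stage embryos, 106 ± 18.9 in early maturation and 33.2 ± 6.25 at mid maturation (SD, n = 3), and was lowest in seedlings, at 8.55 ± 0.448. Glyma.06G301600 was low throughout. Its mean was 1.45 ± 0.210 scaled CPM at the cotyledon stage and 0.658 ± 0.265 in early maturation, but like Bmy1 it was highest at mid maturation, at 5.30 ± 0.604 (SD, n = 3). Its dry seed mean was 0.565 ± 0.585, from values of 0 to 1.17 scaled CPM that rest on a few reads. The early maturation and seedling means (0.647 ± 0.201 in seedlings) lay within that range, so no lowest stage can be named. The gene table could not tell whether these identifiers stand next to Bmy1 on the chromosome.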
